A study of Homo sapiens with 15 samples.

Results

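UFM1 is a small protein that cells attach covalently to other proteins, much as they attach ubiquitin. The 6 genes described here encode that modifier (UFM1), the E2 conjugating enzyme UFC1, the E3 ligase UFL1, its ER membrane partner DDRGK1, its partner CDK5RAP3 and the protease UFSP2, and they were taken by gene symbol from 18338 genes in the tables. All 6 were among the 11753 genes tested, which had a mean of at least 1 FPKM (fragments mapped per kilobase of transcript, scaled to the mapped fragments of the library) over the 15 libraries.

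UFM1 is matured by a protease, activated, passed to UFC1 and attached to its targets by UFL1, which DDRGK1 holds at the ER membrane and CDK5RAP3 helps to direct. UFSP2 removes it again. A ribosomal protein next to the exit tunnel, RPL26, is a well known target when ribosomes are docked on the ER, and the pathway is known for its part in ER protein quality control and in the turnover of ER.

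RNA-Seq was performed on Biosensor cells, a HEK293 line (human embryonic kidney) that stably expresses the tau repeat domain with the P301S mutation fused to YFP, so all 3 groups carry this transgene. Control cells were transfected with brain lysate of wildtype mice, PS19 cells with brain lysate of PS19 mice, a strain that expresses human P301S tau in the nervous system, and a group of thapsigargin cells was treated with 0.3 µM thapsigargin, an inhibitor of the ER calcium pump that served as a positive control for ER stress. Each group had 5 libraries. The labels do not say whether thapsigargin cells also received lysate, so the drug and the absence of lysate cannot be told apart in that comparison. Nor do they give the time under thapsigargin, which may differ from the time after transfection and cannot be told apart either. The replicates are called independent without naming separate cultures, so p-values measure the spread between libraries, which may be technical.

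The libraries summed to between 506146 and 637687 FPKM per library, and their depth in reads is unknown. The thapsigargin label was checked with DDIT3, a target of ER stress signalling. It rose from 10.4 ± 2.64 FPKM (SD, n = 5) in control to 139.7 ± 16.6 in thapsigargin libraries. In PS19 libraries DDIT3 was at 8.28 ± 1.13 FPKM and overlapped control, so it did not check the PS19 label. Of 8 markers of HEK293 cells, 7 had a mean of at least 1 FPKM and the list summed to between 560.38 and 751.16 FPKM. Of 11 brain cell markers 10 were in the tables and 2 reached that mean over the 15 libraries. These were SYT1 (0.94 to 2.30 FPKM) and GAD1 (5.23 to 8.93 FPKM), while SNAP25 stayed at or under 0.08 FPKM in every library. Any RNA from the lysate would be of mouse, so these human genes were not a test for it. In bulk samples, fewer cells and less RNA per cell cannot be told apart. Control libraries 1 and 2 stood apart from control libraries 3 to 5 in base composition, and thapsigargin libraries 2 and 3 correlated least with the rest of their group (mean r of 0.981 and 0.980, against 0.987 to 0.989 for the other 3).

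Promoter sequences from RefSeq (GRCh38.p14; 250 bases before and 50 after the transcription start) were matched for 4 of the 6 members: UFM1, UFL1, UFSP2 and CDK5RAP3. The stretches printed here belong to the 3 members whose groups separated most clearly under thapsigargin, and capitals mark ACGTG, the core shared by binding sites of the stress factors XBP1 and ATF6, on either strand. The sequence for UFM1 is chr13:38349601-38349900 (plus strand), that for UFL1 is chr6:96521556-96521855 (plus strand), and that for CDK5RAP3 is the downstream one of its 2 annotated starts, chr17:47970863-47971162 (plus strand).
UFM1: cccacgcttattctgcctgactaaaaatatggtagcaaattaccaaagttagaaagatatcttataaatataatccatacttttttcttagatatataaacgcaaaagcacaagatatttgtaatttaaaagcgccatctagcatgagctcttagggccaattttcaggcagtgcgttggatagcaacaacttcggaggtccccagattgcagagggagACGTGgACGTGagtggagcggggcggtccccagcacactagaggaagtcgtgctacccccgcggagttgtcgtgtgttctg
UFL1: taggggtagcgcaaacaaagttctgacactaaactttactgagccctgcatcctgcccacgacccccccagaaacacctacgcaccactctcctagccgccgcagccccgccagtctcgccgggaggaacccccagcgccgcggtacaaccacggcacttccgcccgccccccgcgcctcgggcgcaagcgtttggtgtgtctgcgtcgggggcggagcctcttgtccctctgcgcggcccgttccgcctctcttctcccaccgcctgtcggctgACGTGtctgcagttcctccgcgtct
CDK5RAP3: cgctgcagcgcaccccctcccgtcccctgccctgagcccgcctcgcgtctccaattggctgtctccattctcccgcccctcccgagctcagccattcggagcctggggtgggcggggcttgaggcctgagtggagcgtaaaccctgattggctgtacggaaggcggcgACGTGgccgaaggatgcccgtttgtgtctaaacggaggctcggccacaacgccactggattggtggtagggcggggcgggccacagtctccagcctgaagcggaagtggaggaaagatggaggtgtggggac
The UFM1 promoter held ACGTG at -31 to -27 and again at -25 to -21 relative to the start, with 1 base between them. UFL1 held it at 26 to 30 after its start and CDK5RAP3 at -82 to -78. ACGTG occurs on either strand in 21.4% of the 35116 promoters in the table, and neither UFSP2 nor the upstream start of CDK5RAP3 held it. Among 4 other pathway genes with a promoter in the table, SAYSD1 (on both strands, from -113 to -108) and TRIP4 (-13 to -9), neither called under thapsigargin, held it, and ODR4, called higher, and RPL26, not called, did not. UFSP2 instead held TGACGTCA, the cAMP response element, at -48 to -41, a motif in 1.85% of promoters that shares the letters ACGT with ACGTG. The longer ER stress elements ERSE (CCAAT and CCACG with 9 bases between them, 0.0769% of promoters) and ERSE-II (ATTGG and CCACG with 1 base between them, 0.0541%), TGACGTGG (0.729%, which contains ACGTG) and the ATF4 motif TGATGNAA (3.62%) were searched on both strands and matched in none of these 5 promoters.

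FPKM is scaled by length but not by base composition, so the members' levels can be set side by side only roughly. Their transcripts ran from 35.2% GC for UFM1 to 59.8% for DDRGK1. UFC1 was the most abundant and UFSP2 the least in all 15 libraries. The order UFC1, DDRGK1, CDK5RAP3, UFM1, UFL1, UFSP2 held in 12 of 15 libraries. In the other 3, all treated with thapsigargin, CDK5RAP3 stood above DDRGK1. Neighbours in this order did not overlap in control or PS19 libraries, and under thapsigargin only CDK5RAP3 (58.2 to 77.6 FPKM) and DDRGK1 (53.8 to 81.2 FPKM) did. UFC1 alone made up 49.7% to 53.2% of the summed FPKM of the members in control libraries and 39.8% to 47.1% in thapsigargin libraries. The sum itself was 210.6 to 252.8 FPKM in control and 314.0 to 336.8 FPKM in thapsigargin libraries.

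**Figure D1:**
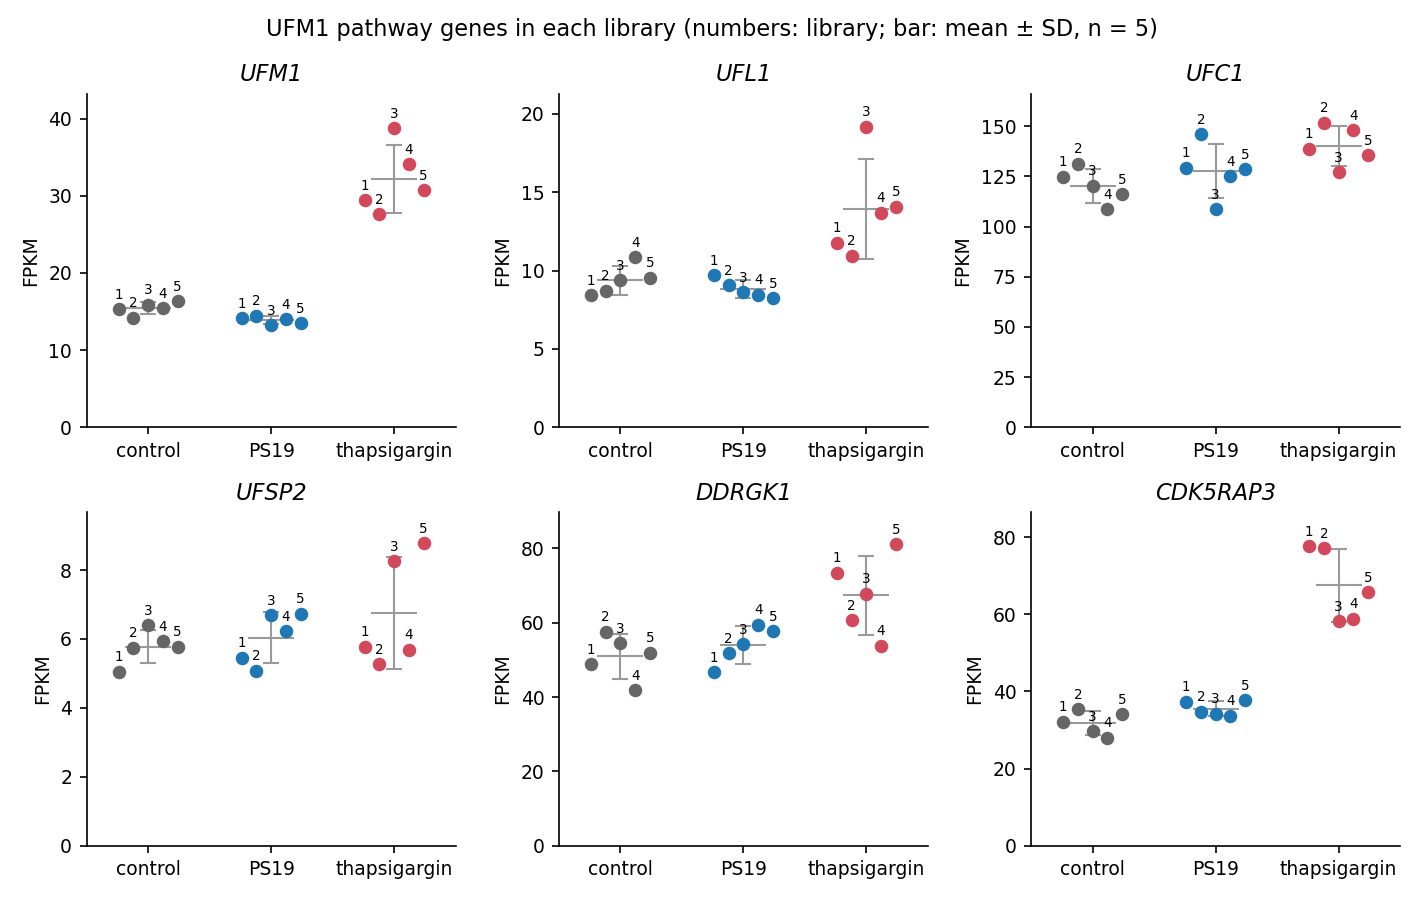
FPKM of the 6 genes in each of the 15 libraries (points, labelled by library number), with the mean and SD of each group of 5. UFM1, UFL1 and CDK5RAP3 lay higher in every thapsigargin library than in any control or PS19 library, and UFC1, UFSP2 and DDRGK1 overlapped.

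Thapsigargin was compared with control to ask how the pathway stood in stressed cells. In limma with Benjamini-Hochberg adjustment, 5 of 6 members were higher and 0 lower at an adjusted p under 0.1, where 26% of all genes tested were called higher and 43.4% lower. The members' median difference was 0.46 on the log2(FPKM + 0.5) scale, against -0.13 over all genes tested. That shift of all genes depended on scaling: median-ratio scaling set it at -0.00095 and called 34.2% of genes higher and 33.5% lower and 6 members higher, while rescaling to TPM, which gives every library the same sum, set it at -0.28 and called 17.4% higher and 54.6% lower and 3 members higher.

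UFM1, the modifier, was at 15.3, 14.2, 15.9, 15.4 and 16.3 FPKM in control libraries 1 to 5, at 14.1, 14.4, 13.2, 14.0 and 13.5 FPKM in PS19 libraries, and at 29.4, 27.6, 38.8, 34.1 and 30.7 FPKM in thapsigargin libraries. Every thapsigargin library lay above every other one, as for 14.7% of all genes tested against control and 15.6% against PS19, and library 3 was highest. UFM1 rose 2.04-fold under thapsigargin (log2 difference 1.03, SE 0.093, adjusted p 5.11e-06, limma). Its difference stayed between 0.87 and 1.16 in 25 alternatives. UFM1 is among the genes that the study displayed for these samples, so its direction is not independent evidence.

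CDK5RAP3, the ligase partner, was at 32.1, 35.4, 29.7, 28.0 and 34.1 FPKM in control libraries, at 37.4, 34.7, 34.2, 33.7 and 37.7 FPKM in PS19 libraries, and at 77.6, 77.1, 58.2, 58.8 and 65.7 FPKM in thapsigargin libraries. The thapsigargin libraries again lay above all others, here with libraries 1 and 2 highest. Its rise was 2.09-fold (log2 difference 1.07, SE 0.10, adjusted p 7.69e-06, limma).

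UFL1, the E3 ligase, was at 8.44, 8.71, 9.38, 10.85 and 9.54 FPKM in control libraries, at 9.70, 9.06, 8.63, 8.47 and 8.24 FPKM in PS19 libraries, and at 11.8, 10.95, 19.2, 13.7 and 14.1 FPKM in thapsigargin libraries. The groups were separate, but the lowest thapsigargin library was close to the highest control library and library 3 stood well above the rest. UFL1 rose 1.44-fold (log2 difference 0.53, SE 0.13, adjusted p 0.0047, limma), and by 0.41 on the log2 scale in the lowest of the fits that left out 1 library.

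DDRGK1, which anchors the ligase, was at 48.9, 57.6, 54.5, 41.8 and 51.9 FPKM in control libraries, at 46.8, 51.8, 54.1, 59.4 and 57.7 FPKM in PS19 libraries, and at 73.4, 60.7, 67.8, 53.8 and 81.2 FPKM in thapsigargin libraries. Thapsigargin library 4 fell inside the control range and the other 4 lay above it. DDRGK1 rose 1.31-fold (log2 difference 0.39, SE 0.12, adjusted p 0.0111, limma). The call was lost after rescaling to TPM (0.23, adjusted p 0.116) and after a correction for GC content, length and level (0.037, adjusted p 0.821).

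UFC1, the E2 enzyme, was at 125, 131, 120.35, 109 and 116 FPKM in control libraries, at 129, 146, 109, 125 and 128 FPKM in PS19 libraries, and at 139, 152, 127, 148 and 136 FPKM in thapsigargin libraries. Thapsigargin library 3 fell inside the control range. Its rise was 1.17-fold (log2 difference 0.22, SE 0.076, adjusted p 0.0233, limma). It was lost after rescaling to TPM (0.059, adjusted p 0.374) and quantile normalization (0.045, adjusted p 0.515), and it turned to -0.0056 (adjusted p 0.938) after the correction for GC content, length and level.

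UFSP2, the protease, was at 5.05, 5.74, 6.40, 5.93 and 5.77 FPKM in control libraries, at 5.46, 5.08, 6.68, 6.22 and 6.73 FPKM in PS19 libraries, and at 5.77, 5.26, 8.26, 5.69 and 8.78 FPKM in thapsigargin libraries. Libraries 3 and 5 of the thapsigargin group were high and the other 3 lay within the control range. It did not pass the test (log2 difference 0.18, 95% interval -0.11 to 0.48, adjusted p 0.258, limma). It passed under median-ratio scaling (0.31, adjusted p 0.042), under quantile normalization (0.43, adjusted p 0.00361) and after the correction for GC content, length and level (0.36, adjusted p 0.00346).

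**Figure D2:**
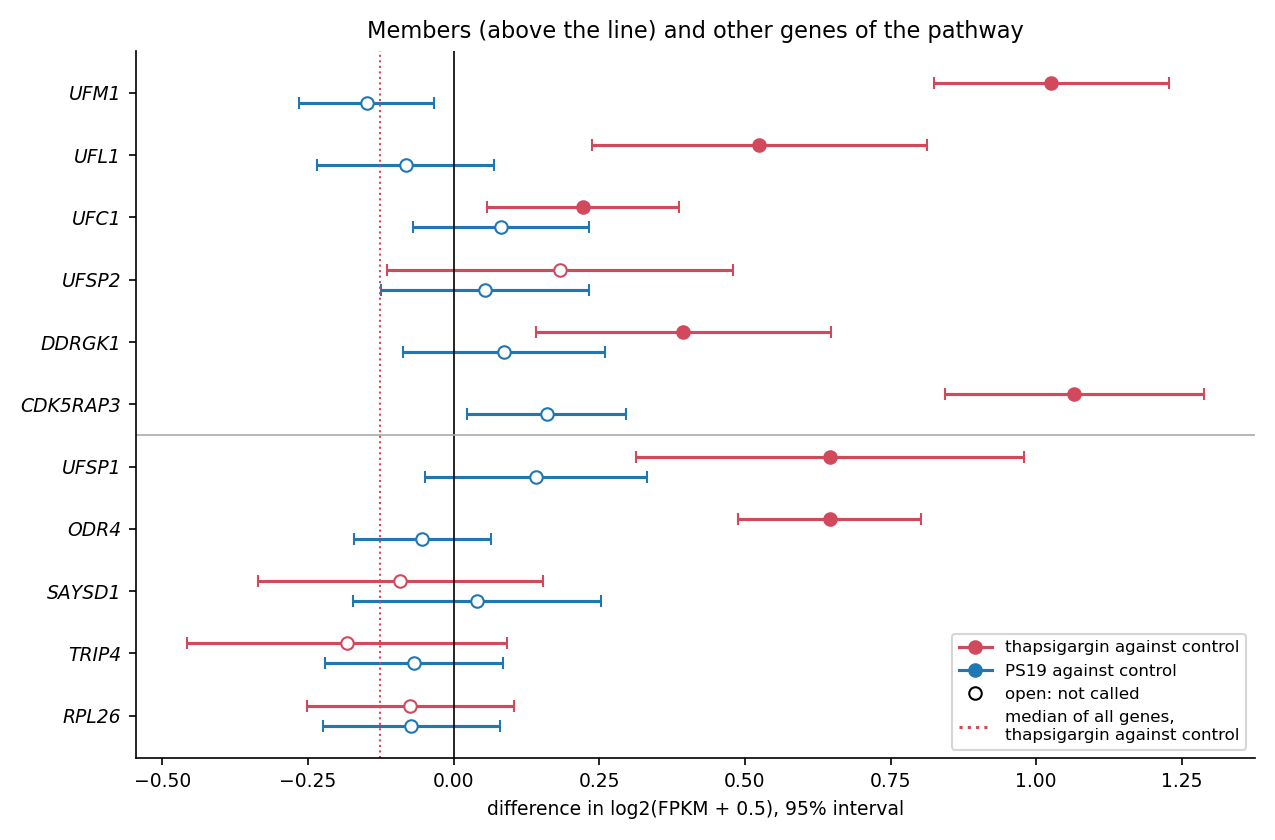
Difference in log2(FPKM + 0.5) with its 95% interval for thapsigargin against control and PS19 against control, for the 6 members and 5 other pathway genes. Filled points passed an adjusted p of 0.1 in limma, and the dotted line marks the median of -0.13 over all genes tested under thapsigargin.

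Both comparisons with thapsigargin share its libraries. Against PS19 libraries, 4 of 6 members were higher and 0 lower, with 25.8% of all genes tested called higher and 42.2% lower. UFM1 differed by 1.18 on the log2 scale (SE 0.089, adjusted p 9.05e-07), CDK5RAP3 by 0.91, UFL1 by 0.61 and DDRGK1 by 0.31 (adjusted p 0.026, limma). UFC1 (0.14, 95% interval -0.04 to 0.32) and UFSP2 (0.13, 95% interval -0.18 to 0.44) did not pass. UFC1 passed in 3 of 24 alternatives (lowest adjusted p 0.0344, limma). Among them were the fits without PS19 library 2 (0.19, adjusted p 0.0679) and without thapsigargin library 3 (0.18, adjusted p 0.076). UFSP2 passed in 2 of 24 alternatives (lowest adjusted p 0.0217, limma), none of which left out only 1 library. DDRGK1 did not pass after rescaling to TPM (0.17, adjusted p 0.245) or the correction for GC content, length and level.

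The change of each member relative to UFM1 within a library does not depend on how libraries are scaled to each other. The ratio of UFC1 to UFM1 was 7.04 to 9.26 in control and 3.28 to 5.50 in thapsigargin libraries, that of DDRGK1 was 2.71 to 4.06 and 1.58 to 2.64, that of UFL1 was 0.553 to 0.704 and 0.397 to 0.495, and that of UFSP2 was 0.331 to 0.405 and 0.167 to 0.286. None of these 4 ratios overlapped between the groups, as for 83.9% of all genes tested. Against UFM1, 4 of 5 members were lower under thapsigargin in limma, UFSP2 by -0.84, UFC1 by -0.80, DDRGK1 by -0.63 and UFL1 by -0.50 on the log2 scale (adjusted p 1.66e-05 to 0.00141), where 94.8% of all genes tested were called lower against UFM1. The change of CDK5RAP3 did not pass a test of difference from that of UFM1 (0.04, 95% interval -0.32 to 0.40, adjusted p 0.819), with a ratio of 1.82 to 2.49 in control and 1.501 to 2.79 in thapsigargin libraries. After the correction for GC content, length and level, it too rose less than UFM1 (-0.25, adjusted p 0.0131).

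Within groups, libraries differed in ways that went with base composition. Across all genes, the deviation of a library from its group mean correlated with transcript GC content at r of 0.682 and 0.557 in thapsigargin libraries 1 and 2 and -0.702 in library 3, and at 0.449 and 0.602 in control libraries 1 and 2 against -0.413 to -0.395 in the other 3 (genes are not independent). The transcripts of UFM1 and UFL1 have 35.2% and 35.7% GC, that of CDK5RAP3 54.8% and that of DDRGK1 59.8%. As a description over 15 libraries, with group means removed, UFM1 correlated with UFL1 at r of 0.846 and with CDK5RAP3 at -0.714. After the correction for GC content, length and level these were -0.289 and 0.336, so neither sign was kept. The rise under thapsigargin was kept with that correction for UFM1 (1.16), UFL1 (0.80) and CDK5RAP3 (0.92).

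**Figure D3:**
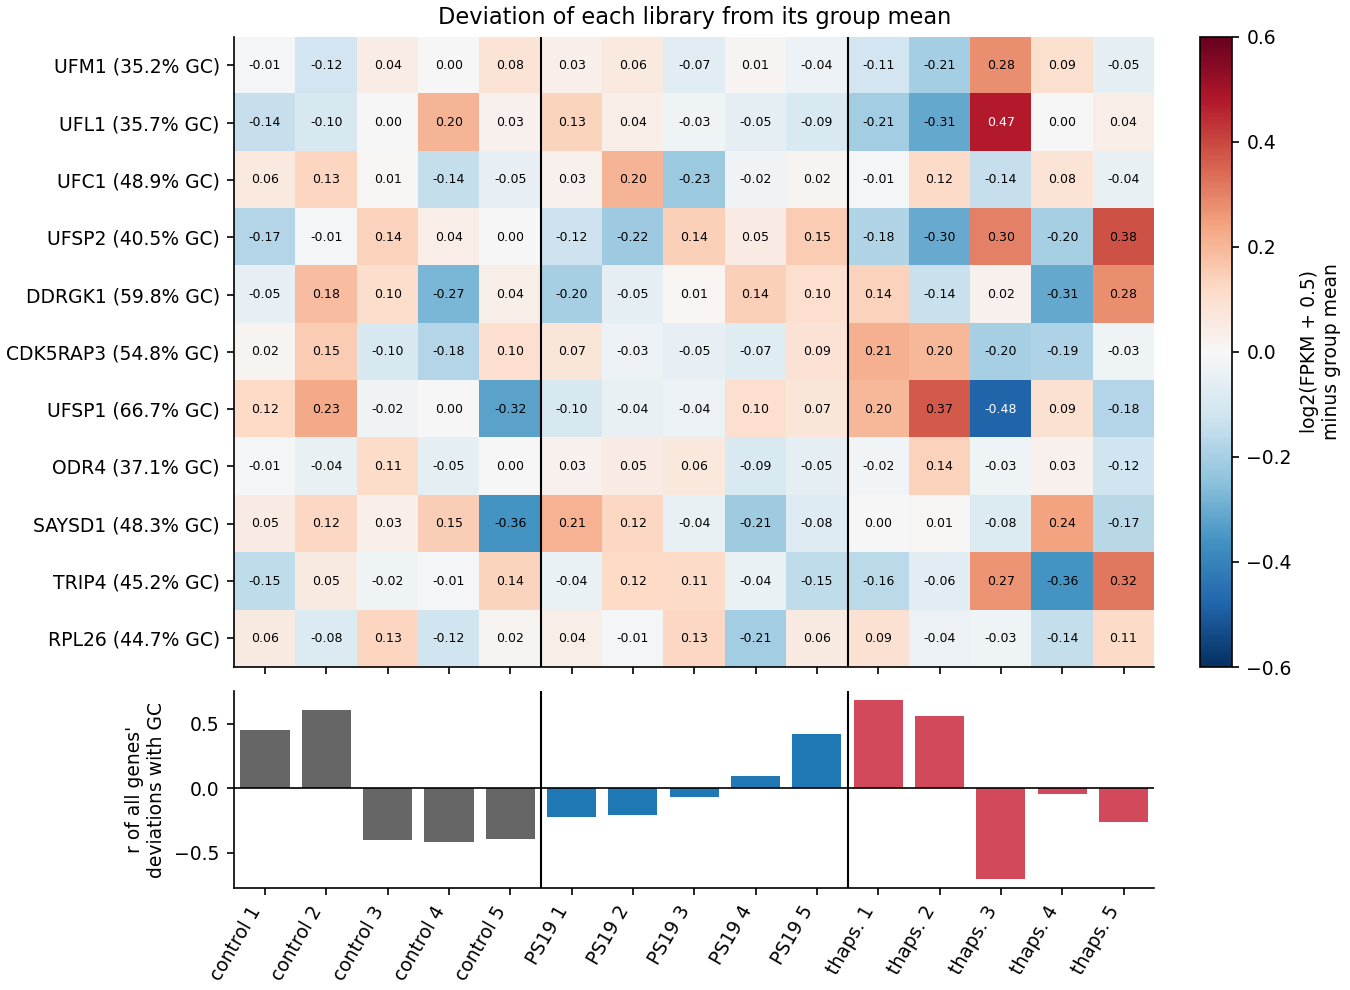
Deviation of log2(FPKM + 0.5) from the group mean for 11 pathway genes in 15 libraries (upper panel, with the GC content of each transcript), and the correlation of all genes' deviations with GC content in the same library (lower panel). In thapsigargin library 3, with r of -0.702, UFM1 and UFL1 lay above and CDK5RAP3 and UFSP1 below their group means. DDRGK1 (59.8% GC, deviation 0.024) and ODR4 (37.1% GC, deviation -0.025) lay close to theirs in that library.

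PS19 was compared with control to ask whether lysate that seeds tau aggregates changed the pathway. In limma 0 of 6 members passed an adjusted p of 0.1, where 0.0425% of all genes tested were called, 5 of 11753. At an unadjusted p under 0.05, 2 of 6 members and 706 genes (6.01%) were found. Without the mean-variance trend 0 members and 2 at that unadjusted p were found, as with robust variances. UFM1, which the study also displayed for this comparison, so that its direction here is not independent evidence, differed by -0.15 on the log2 scale (95% interval -0.265 to -0.034, unadjusted p 0.0144, adjusted p 0.767, limma) and CDK5RAP3 by 0.16 (0.022 to 0.296, unadjusted p 0.0253, adjusted p 0.809, limma), and in both the groups overlapped. For the other 4 members the differences ran from -0.082 for UFL1 to 0.086 for DDRGK1, and their 95% intervals together reached from -0.234 to 0.26. Without control libraries 1 and 2, UFM1 was called lower (-0.19, adjusted p 0.0398) and CDK5RAP3 higher (0.22, adjusted p 0.0449) in limma. In that fit 7.46% of all genes were called higher and 13.3% lower, 2438 in all. With all libraries and the correction for GC content, length and level, 0 members were called, and UFM1 stood at -0.11 and CDK5RAP3 at 0.14. Relative to UFM1 in the same library, 2 of 5 members were higher in PS19 cells, CDK5RAP3 (0.31, adjusted p 0.065) and UFC1 (0.23, adjusted p 0.0863), where 18.7% of all genes tested were called, and neither was called without control library 3, 4 or 5 or PS19 library 1, 3, 4 or 5, in 7 of the 10 fits that left out 1 library.

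Among 5 other genes of the pathway, 2 were higher under thapsigargin, 0 were lower and 3 were not called. ODR4, the partner of UFSP2 at the ER membrane, was at 13.2 to 14.9 FPKM in control and 20.1 to 24.1 FPKM in thapsigargin libraries, with no overlap (log2 difference 0.65, adjusted p 2.49e-05, limma). UFSP1, a protease that matures UFM1, was at 3.89 to 5.90 and 5.64 to 10.5 FPKM, with an overlap at thapsigargin library 3 (0.65, adjusted p 0.00333). The differences of SAYSD1, a receptor for modified ribosomes, of TRIP4, a target of the modification, and of RPL26 were -0.09, -0.18 and -0.07 and did not pass. Under TPM SAYSD1, TRIP4 and RPL26 were called lower (-0.24, -0.34 and -0.24), and with median-ratio scaling SAYSD1 and RPL26 stood at 0.03 and 0.06 in limma. After the correction for GC content, length and level UFSP1 stood at 0.26 (adjusted p 0.00898) and RPL26 at -0.30 (adjusted p 0.00604). RPL26 has near-identical copies in the genome, so its value is uncertain. In PS19 cells 0 of these 5 were called, and 0 of 5 had an unadjusted p under 0.05 in limma.

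Other lists were read in the same fit, against 26% of all genes tested called higher and 43.4% lower. Of the HRD1 complex and ER-associated degradation, 11 of 15 genes were higher and 3 lower under thapsigargin, with DERL3 rising from 9.25 to 100.2 FPKM (means), SYVN1, the HRD1 ligase, from 32.7 to 141 FPKM and SELENOS from 26.3 to 82.7 FPKM. Of the SEC61 translocon, where UFM1 is attached to ribosomes, 10 of 15 were higher and 1 lower, with SSR2 at a log2 difference of 1.25, SEC61A1 at 1.19 and SEC61B at 0.73. These 2 lists had medians of 0.66 and 0.54, above that of the members (0.46), and their counts under TPM were 10 higher and 3 lower, and 8 higher and 2 lower. Of ribosome-associated quality control 5 of 13 were higher (38.5%) and 4 lower (30.8%), with ASCC2 at 0.74, NEMF at 0.51 and NPLOC4 at -0.53. Of receptors and LC3 family genes of ER turnover 3 of 11 were higher and 3 lower (27.3% each), the higher share near that of all genes. SEC62, which is counted with the SEC61 translocon as well, was at 0.54, TEX264 at 0.37 and RTN3 at -0.34. Under the correction for GC content, length and level ribosome-associated quality control had 6 higher and 2 lower, and ER turnover 5 higher and 2 lower. With it TEX264 (0.0065, adjusted p 0.941) and RTN3 (-0.08, adjusted p 0.263) did not pass in limma.

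The pathways of other small modifiers were read in the same way. Of the NEDD8 pathway 1 of 7 genes was higher, UBE2M, its E2 enzyme (0.43), and 3 were lower, among them UBA3, an E1 subunit (-0.50), and the protease SENP8 (-0.53), and its share of lower genes (42.9%) was near the 43.4% of all genes tested. Of the SUMO pathway 0 of 16 were higher and 8 lower (50%), with SUMO3 at -1.01, PIAS1, a ligase, at -0.79 and SUMO2 at -0.75. Median-ratio scaling gave 2 higher and 2 lower for NEDD8 and 2 higher and 6 lower for SUMO, TPM gave 1 and 5 and 0 and 13, and UBE2M turned to -0.01 after the correction for GC content, length and level. SUMO2 and SUMO3 have near-identical copies, so their values are uncertain. In PS19 cells 0 genes of these lists were called.

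**Figure D4:**
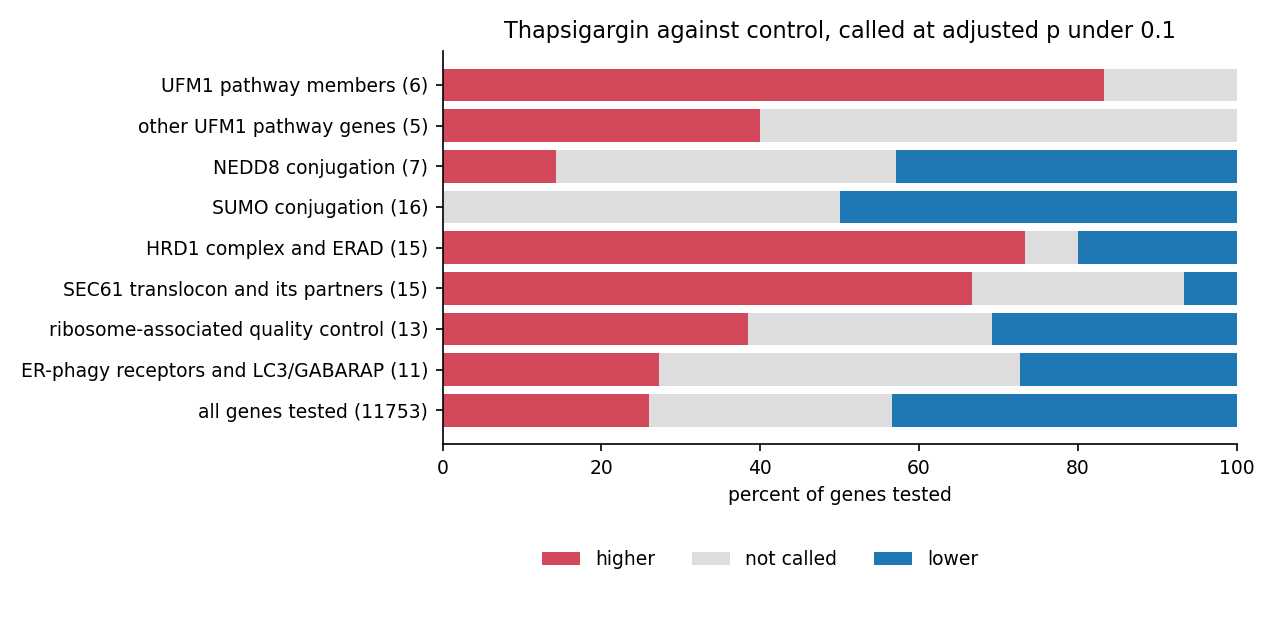
Percent of the genes tested in each list (number in brackets) that were higher, lower or not called under thapsigargin against control in limma. Of the members 5 of 6 were higher and 0 lower, and of SUMO conjugation 0 of 16 were higher and 8 lower, where 26% of all genes tested were higher and 43.4% lower.

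The 5 genes whose log2(FPKM + 0.5) followed UFM1 most closely over the 15 libraries were IFRD1 (r = 0.994), ERO1B (r = 0.991), TUBE1 (r = 0.991), CTH (r = 0.989) and XBP1 (r = 0.988), with no test. The 15 points share their treatments, and with group means removed r was 0.702 to 0.87, without the correction for GC content, length and level. IFRD1, for example, was at 15.5 to 17.4 FPKM in control, 14.4 to 16.9 FPKM in PS19 and 35.0 to 46.1 FPKM in thapsigargin libraries. Of the pathway's own genes ODR4 (0.950), UFL1 (0.913) and CDK5RAP3 (0.873) were most like UFM1 over all libraries, and UFSP2 (0.395) and SAYSD1 (-0.332) were not. With group means removed, r was -0.134 for ODR4, 0.846 for UFL1 and -0.714 for CDK5RAP3. After the correction for GC content, length and level these 3 were 0.761, -0.289 and 0.336, so no sign was kept.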

How the data were processed

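Read filtering (SOAPnuke), alignment (HISAT2 2.0.4, GRCh38.p12) and quantification (RSEM 1.2.12) were done by the authors, who deposited their FPKM values without a stated scaling between libraries. The submitters' processing notes also name DESeq2 1.4.5, which needs counts and was not used here. Only 7 of 2758 genes examined (0.25%) had values that were whole multiples of a shared step (within 0.1 reads in at least 90% of values), so depth could not be recovered.

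Values were compared for 2 groups at a time as log2(FPKM + 0.5) in limma (version 3.58.1, R 4.3.3), with moderated two-sided tests and a variance trend on mean level. The 11753 genes whose mean reached 1 FPKM entered, p-values were adjusted over all of them (Benjamini-Hochberg), and calls were made below 0.1. All 15 sample columns were used, 5 libraries per group, and the 414 text cells in rows with no gene were not. Changes relative to UFM1 were fitted to differences of log2 values within a library. Members and lists were chosen with earlier results of these data known. Named genes were the members, 5 other pathway genes, the 3 of smallest p per list, the 5 most like UFM1 and the label checks. Corrections with splines for GC content, length and level (GENCODE transcripts of another build by symbol, for 96.1% of tested genes), and fits without control libraries 1 and 2 or thapsigargin libraries 2 and 3, were added after seeing the data. Fits were tested on simulated data with independent normal noise for each gene. Those data held no shifts with GC content within a library, so calls under such shifts were not tested. Some genes of these lists are not reported here. Promoters came from RefSeq.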

Additional observations from a re-analysis of the deposited data

Results flagged for a closer look

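Among the 11 pathway genes, 33 groups of 5 libraries were examined for a library that lies far from the others, which chance flags in about 1 in 20 groups, and 2 were found. ODR4 was at 14.92 FPKM in control library 3, the highest of its group, with the next library at 13.73 FPKM. SAYSD1 was at 4.64 FPKM in control library 5, the lowest of its group, with the next library at 6.23 FPKM.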

How the results depend on the processing

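In thapsigargin against control, 5 members were called (range over the fits that left out 1 library 5 to 5), 3 after rescaling to TPM, 4 after the correction for GC content, length and level, 6 with median-ratio scaling and 5 with quantile normalization, where UFSP2 was called and UFC1 was not. Under that correction UFC1 turned to -0.0056, against PS19 UFC1 turned to -0.045 and DDRGK1 to -0.0057, and CDK5RAP3 relative to UFM1 turned to -0.25. UFC1 against PS19 turned to -0.0087 with quantile normalization, and UFSP2 in PS19 against control turned to -0.0062 without control libraries 1 and 2. CDK5RAP3 relative to UFM1 turned to -0.0048 without control library 4, -0.042 without thapsigargin library 1 and -0.062 without thapsigargin library 2, its range over the fits that left out 1 library being -0.062 to 0.16. The causes were not tested. In PS19 against control, 5 genes were called in all, against 3 with no filter on low values, 3 with median-ratio scaling, 3 without the mean-variance trend, 0 after rescaling to TPM, 0 with all 15 libraries in 1 fit, 2 at a threshold of 0.05, 28 after the correction for GC content, length and level and 2438 without control libraries 1 and 2, where 2 members were called. Leaving out 1 library gave 0 to 13 genes. Relative to UFM1, 2 members were called in PS19 cells, 1 without the trend and 0 to 4 when 1 library was left out. The replicate numbers were not taken to pair the samples, since the labels do not say that a number marks a shared day or culture. Same-numbered pairs had r of -0.209 to 0.325 for control and PS19 and -0.0594 to 0.23 for PS19 and thapsigargin. For control and thapsigargin r ran from -0.128 to 0.609, with 4 of 5 pairs at 0.348 or more. Not every library correlated best with its own number. A replicate block gave 13 genes in PS19 against control, and it changed no call of a member. Of 438 fold changes computed under alternatives, 418 kept their direction and side of the threshold. That count includes PS19 against control, where 0 members were called, and many fits that left out 1 library. In thapsigargin against control, UFM1, UFL1 and CDK5RAP3 kept both in all 25 alternatives. UFC1 and UFSP2 kept both in 22 of the 25 and DDRGK1 in 23. Depth is unknown, so counting error could not be given, and with 5 libraries per group the interval of UFSP2 under thapsigargin spans -0.11 to 0.48.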
